A study of Canis lupus familiaris with 4 samples.

Results

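The genes described here are the proteasome genes of the canine array, taken as probe sets with exactly 1 gene symbol that starts with *PSM*, a letter from A to G and a digit. *PSMB8* and *PSMB9* were left out by the rule, and the probe set with the highest mean intensity stood for its gene. The rule found 42 genes with 86 probe sets, of 15115 genes on the array that could be named in this way. Of these, 40 genes passed the filter on low values, which kept a gene whose highest intensity reached 28.75, the median of the table, and which kept 9749 genes in all. The testis-specific alpha subunit *PSMA8* had intensities of 8.82 and 6.24 on the HIF2α-KD and control arrays in hypoxia and 8.43 and 6.69 in normoxia, and the thymus-specific beta subunit *PSMB11* had 3.54 and 2.07 in hypoxia and 8.05 and 8.30 in normoxia, so both lay at the background, taken as the 95th percentile of 63 dim control probe sets (20.6 to 27.2 per array), and are not counted further. Subunits without a probe set of 1 symbol, such as *PSMB7*, *PSMC1*, *PSMD1* and *PSMD4*, were not analysed here.

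The proteasome is the protease that degrades proteins marked with ubiquitin. Its barrel-shaped core particle is built of outer rings of alpha subunits (*PSMA*), which gate the entry, and inner rings of beta subunits (*PSMB*), some of which cut peptide bonds. The regulatory particle sits on the end of the core, and consists of a base with a ring of ATPases (*PSMC*) that unfolds substrates and a lid (*PSMD*) that binds the base and removes ubiquitin. Other activators (*PSME*) can cap the core instead, *PSMF1* encodes an inhibitor of the core in vitro, and a set of chaperones helps to assemble the particles. In cells with impaired proteasomes, many subunit genes are transcribed together through the transcription factor encoded by *NFE2L1*. These roles are known mainly from human and yeast proteins.

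RNA came from MDCK cells, a polarized epithelial line of canine kidney, in 4 conditions with 1 array each: HIF2α-KD cells in hypoxia, control cells in hypoxia, HIF2α-KD cells in normoxia and control cells in normoxia. All cells spent 24 h in normoxia (16% O2) and then a further 24 h in hypoxia (1% O2) or normoxia. HIF2α-KD cells had received a retroviral shRNA against the HIF2α transcript and were selected with puromycin; the control cells carried an empty shRNA cassette and are called wild type in the labels. The text of the study gives the line arrayed in normoxia as HIF2α-KD#1, while the labels name no line. No condition has a replicate, so the differences between 2 arrays have no replicate check and no p-value, and each array reads the RNA of a whole culture, where fewer cells with a transcript and less RNA per cell cannot be told apart.

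*EPAS1*, the gene of HIF2α, had an intensity of 32.6 on the array labelled HIF2α-KD and 116 on the control array in hypoxia, and 47.9 and 44.6 in normoxia. The targeted gene was therefore lower under the HIF2α-KD label in hypoxia but not in normoxia, so the arrays are called by their labels below, and each direction that uses the normoxic array labelled HIF2α-KD rests on that label. The oxygen labels were borne out by *ADM*, *NDRG1*, *PDK1* and *VEGFA*, hypoxia-induced genes, which rose with adjusted p-values of 0.001151, 0.01211, 0.0007465 and 0.007743 for the oxygen term of limma, while *CA9* and *BNIP3* did not pass the filter. Median intensities of the 4 arrays were 28.2 to 29.1. Of 7 markers of kidney epithelium, *KRT8*, *KRT18*, *EPCAM* and *CDH16* stood above the background on all 4 arrays, *CDH1* did so on the hypoxic arrays (81.4 on the array labelled HIF2α-KD and 119 on the control array, against 18.9 and 15.4 in normoxia), and *PAX2* and *PAX8* lay at the background. Their summed intensity was 27704 and 27397 in hypoxia and 25975 and 27899 in normoxia, on the arrays labelled HIF2α-KD and the control arrays. None of 4 fibroblast markers stood above the background on all arrays (sums of 47.9 to 60.8), and 3 of 3 leukocyte markers and *CDH5* of 3 endothelial ones did, with low sums of 103 to 119 and 109 to 140. Their part in the results was not tested.

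All 40 proteasome genes stood above the background on all 4 arrays, and the 4 arrays differed little for most of them. The range over the arrays on the scale log2(intensity + 16), on which all differences here are given, had a median of 0.27 for the 40 genes and 0.41 for all 9749 genes. The proteasome genes were brighter, since 32 of the 40 reached an intensity of 1000, against 2245 of all genes. Genes of like intensity were not compared, so the smaller range is not shown to be a trait of the proteasome. It was smallest for the alpha subunit *PSMA3*, at 0.01, and it was 0.04 for *PSMA7*. The largest ranges belonged to *PSMC3IP*, at 1.06, and *PSMF1*, at 0.93.

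In hypoxia the genes of the core, base and lid were mostly somewhat lower than in normoxia. The gene of the proteasome inhibitor was higher in its brighter probe set, while its dimmer one was lower on the control arrays. Under the HIF2α-KD label 25 of the 40 genes were lower in hypoxia, with a median difference of -0.07 against 0.02 for all genes, and on the control arrays 28 of the 40 were lower, with a median of -0.12 against 0.03. Of all genes, 46.8% were lower in hypoxia under either label. The differences were small, since few genes reached 1.5-fold: 0 lower and 1 higher under the HIF2α-KD label, where 2.69% and 5.47% of all genes did so, and 1 lower and 1 higher on the control arrays, where 4.32% and 10.2% did so. At 2-fold, 0 genes were lower and 0 higher under the HIF2α-KD label (0.421% and 1.38% of all genes), and 1 was lower and 0 were higher on the control arrays (0.544% and 3.05%). With a log2 difference of 0.32 as the limit, 5 were lower and 2 higher under the HIF2α-KD label (11.1% and 17.0% of all genes), and 7 were lower and 2 higher on the control arrays (15.5% and 22.1% of all genes).

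**Figure D1:**
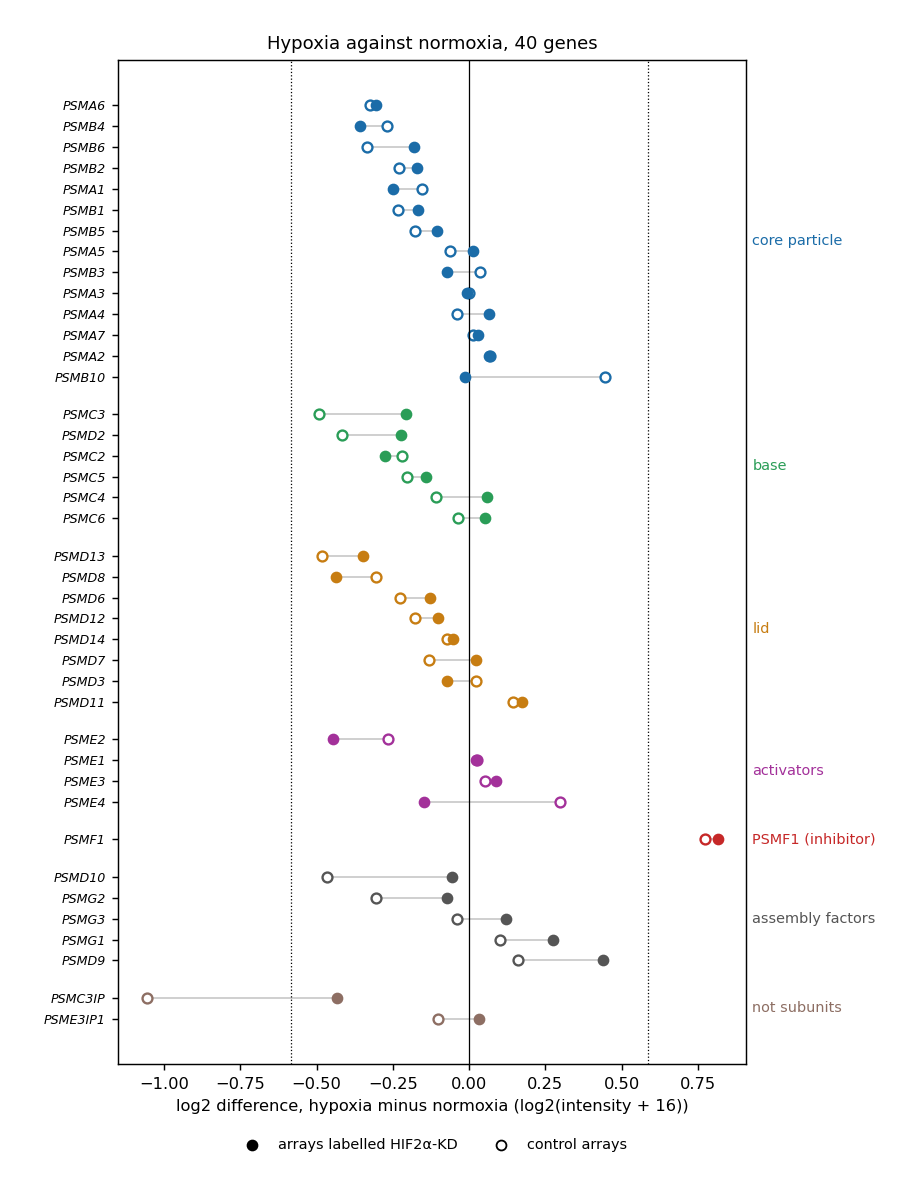
Log2 difference of hypoxia minus normoxia, on the scale log2(intensity + 16), for the 40 proteasome genes grouped by their place in the complex. Filled points are the arrays labelled HIF2α-KD and open points the control arrays, each point is 1 array against 1 array, and dotted lines mark 1.5-fold; *PSMF1* lies to the right on both, at 0.81 and 0.77, and *PSMC3IP* farthest to the left on the control arrays, at -1.06.

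The hypoxia differences under the 2 labels share no array, and they were similar gene by gene. Across the 40 genes their Pearson correlation was 0.76, and it was 0.63 over 38 genes without *PSMF1* and *PSMC3IP*; across all 9749 genes it was 0.53. All arrays come from 1 cell line and genes are not independent replicates, so these values are a description. For 19 of the 40 genes, or 47.5%, both hypoxic arrays lay below both normoxic arrays, a pattern that 22.6% of all genes had. These 19 were *PSMA1*, *PSMA6*, *PSMB1*, *PSMB2*, *PSMB4*, *PSMB5* and *PSMB6* of the core, *PSMC2*, *PSMC3*, *PSMC5* and *PSMD2* of the base, *PSMD6*, *PSMD8*, *PSMD12* and *PSMD13* of the lid, the activator *PSME2*, the chaperones *PSMD10* and *PSMG2*, and *PSMC3IP*. Both hypoxic arrays lay above both normoxic arrays for 5 genes, or 12.5%, against 27.1% of all genes, and these were *PSMA2*, *PSMA7*, *PSMD9*, *PSMF1* and *PSMG1*.

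A fit of limma over the 4 arrays with an oxygen term and a cell line term, which leaves 1 residual degree of freedom and assumes that both lines respond alike, called 1 of the 40 genes higher in hypoxia and 0 lower at an adjusted p of 0.05. It called 234 genes higher (2.4% of all genes) and 41 lower (0.421%) in the whole table. At an unadjusted p under 0.05, 1 proteasome gene was higher and 10 were lower, against 13.1% higher and 7.43% lower among all genes. The 10 were *PSMA6*, *PSMB4*, *PSMB6*, *PSMC2*, *PSMC3*, *PSMD2*, *PSMD8*, *PSMD13*, *PSME2* and *PSMC3IP*; none of them passed the adjustment, and their smallest adjusted p from limma was 0.08516, for *PSMC3IP*.

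The called gene was *PSMF1*, whose product binds the core particle and was first described as its inhibitor. *PSMF1* had an intensity of 145 on the array labelled HIF2α-KD and 129 on the control array in hypoxia, against 75.7 and 68.7 in normoxia. Both hypoxic arrays were well above both normoxic ones, and the 2 labels gave nearly the same values. The gene rose by 0.81 under the HIF2α-KD label and by 0.77 on the control arrays, with an oxygen coefficient of 0.79 ± 0.14 (SE) and an adjusted p of 0.03861 in limma. The call rests on a single dim probe set. A second, dimmer probe set of *PSMF1* had 59.6 and 45.9 in hypoxia and 51.5 and 56.7 in normoxia, a difference of 0.16 under the HIF2α-KD label and -0.23 on the control arrays. With the mean of both probe sets the coefficient was 0.38 and the limma adjusted p 0.1789, and the call was also lost with no filter, with cyclic loess normalization and without the trend in limma, at adjusted p-values of 0.1263, 0.06269 and 0.07152.

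In the core particle the beta subunits had lower medians in hypoxia than the alpha subunits. The median difference of the 14 core genes was -0.09 under the HIF2α-KD label and -0.11 on the control arrays, with 10 genes below 0 in each. For the 7 alpha subunits the medians were 0.01 and -0.04, and 3 and 5 of them were below 0. For the 7 beta subunits the medians were -0.17 and -0.23, and 7 and 5 of them were below 0. The difference between the rings was not tested. By the brightest probe sets, *PSMA6* stood apart from its ring, with -0.31 under the HIF2α-KD label and -0.32 on the control arrays. In these probe sets *PSMA2*, *PSMA3*, *PSMA4*, *PSMA5* and *PSMA7* lay between -0.06 and 0.07 under both labels. The dimmer probe sets of *PSMA2*, *PSMA3*, *PSMA4* and *PSMA5* that passed the filter reached further from 0. Under the HIF2α-KD label they had 0.19, 0.15, -0.004 and -0.006. On the control arrays they had 0.03, -0.08, -0.11 and -0.35. *PSMA1* had -0.25 and -0.15, and its single probe set is of a kind whose probes may also bind other transcripts.

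*PSMB4*, a structural beta subunit, had 4871 on the array labelled HIF2α-KD and 5222 on the control array in hypoxia, against 6240 and 6302 in normoxia. The hypoxic arrays lay clearly below the normoxic ones under both labels, with differences of -0.36 and -0.27 and a limma coefficient of -0.31 ± 0.09 (SE, adjusted p = 0.1195). The catalytic subunits *PSMB5*, which gives the chymotrypsin-like activity, and *PSMB6*, which gives the caspase-like activity, were lower too. *PSMB5* had -0.11 under the HIF2α-KD label and -0.18 on the control arrays, and its other probe set that passed the filter had -0.32 and -0.40. *PSMB6* had -0.18 and -0.33. *PSMB1* and *PSMB2*, both noncatalytic, had -0.17 each under the HIF2α-KD label and -0.23 each on the control arrays.

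*PSMB10*, the catalytic subunit that replaces *PSMB7* in the interferon-induced immunoproteasome, did not follow its ring. *PSMB10* had 1119 on the array labelled HIF2α-KD and 1201 on the control array in hypoxia, against 1131 and 877 in normoxia. The normoxic control array was the low one and the other 3 were alike, so the hypoxia difference was -0.01 under the HIF2α-KD label and 0.45 on the control arrays. A far dimmer second probe set of the gene had 19.7 and 28.1 in hypoxia and 58.0 and 45.9 in normoxia; it was not above the background on the hypoxic array labelled HIF2α-KD, and its difference on the control arrays was -0.49. Without *PSMB10* the medians of the other 6 beta subunits were -0.17 and -0.23.

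**Figure D2:**
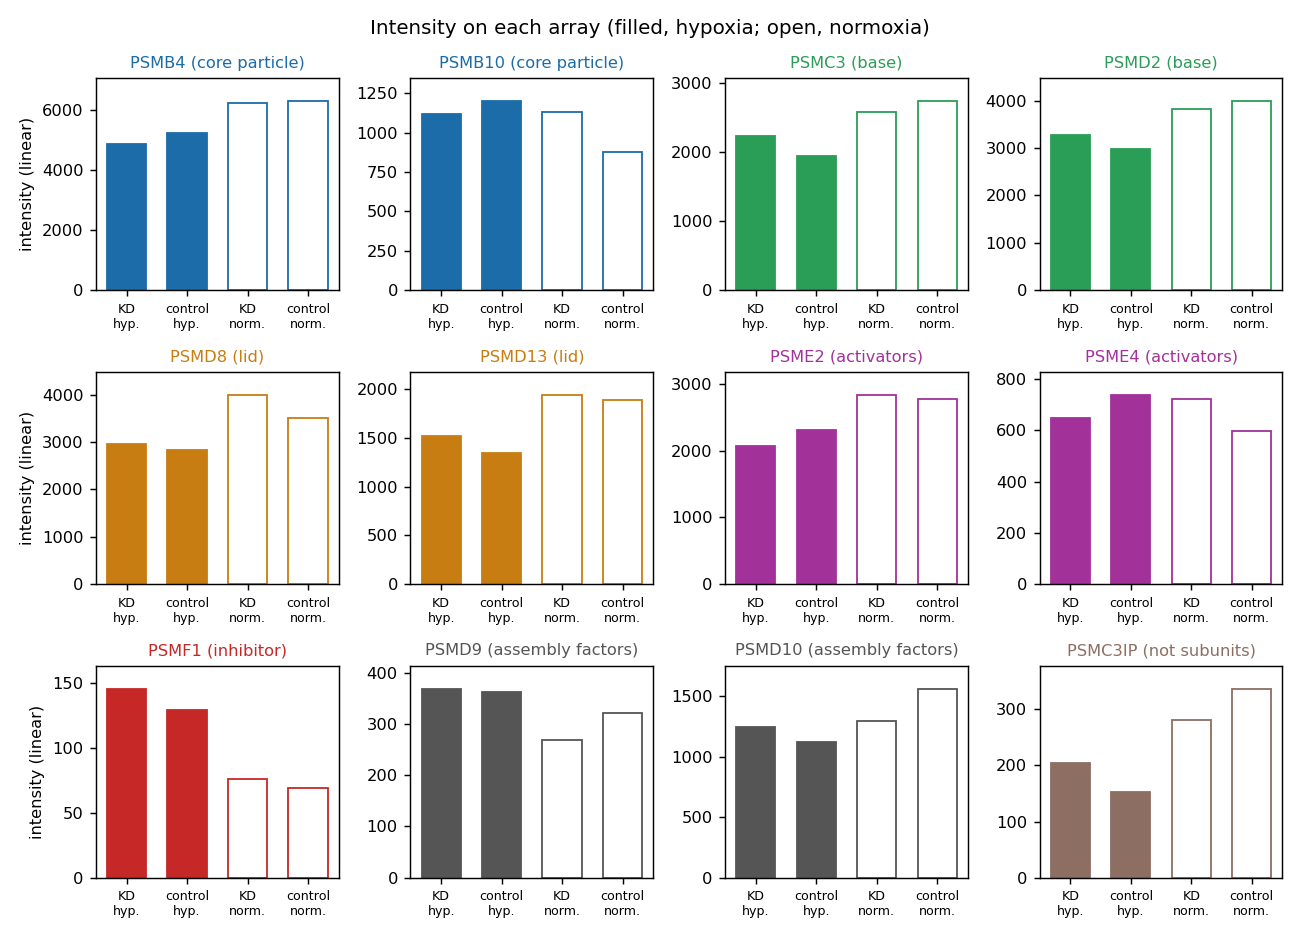
Intensity on a linear axis from 0 on each of the 4 arrays for the 2 genes with the largest range among core, base, lid, activator and assembly genes each, and for *PSMF1* and *PSMC3IP* (1 array per condition, no error bar; KD is the array labelled HIF2α-KD). Filled bars are hypoxia and open bars normoxia; *PSMD8* has 2952 and 2841 in hypoxia against 3996 and 3512 in normoxia, while *PSMF1* has 145 and 129 against 75.7 and 68.7.

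The base had a median hypoxia difference of -0.17 under the HIF2α-KD label, with 4 of 6 genes below 0, and of -0.21 on the control arrays, with 6 of 6 below 0. *PSMC3*, an ATPase of the unfolding ring, had 2234 on the array labelled HIF2α-KD and 1937 on the control array in hypoxia, against 2580 and 2733 in normoxia. Its differences were -0.21 and -0.49, and those of its other probe set that passed the filter were -0.35 and -0.48, with a limma adjusted p of 0.1871 for the gene. Both probe sets thus put the hypoxic arrays lower, by more on the control arrays.

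*PSMD2*, the large scaffold of the base that docks ubiquitin-like domains, had 3277 on the array labelled HIF2α-KD and 2982 on the control array in hypoxia, against 3824 and 3989 in normoxia. The differences were -0.22 and -0.42, but the probe sets of *PSMD2* disagreed: a second had 0.04 and -0.36, and another, dimmer one had 0.57 and 0.53. The ATPase genes *PSMC2* and *PSMC5* were lower in hypoxia with both labels, with -0.28 and -0.22 for *PSMC2* and -0.14 and -0.20 for *PSMC5*. The ATPase genes *PSMC4* and *PSMC6* had 0.06 and 0.05 under the HIF2α-KD label and -0.11 and -0.04 on the control arrays. Their dimmer probe sets that passed the filter disagreed with these values. That of *PSMC4* had -0.38 under the HIF2α-KD label and -0.61 on the control arrays, and that of *PSMC6* had 0.21 and 0.18.

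Of the 8 lid genes that the symbol rule took, 6 were below 0 under each label. Their median was -0.09 under the HIF2α-KD label and -0.15 on the control arrays. *PSMD13*, a lid subunit of the scaffold type, had 1523 on the array labelled HIF2α-KD and 1346 on the control array in hypoxia, against 1941 and 1885 in normoxia. Its differences of -0.35 and -0.48 were matched by a second probe set with -0.32 and -0.48, and the limma coefficient was -0.41 ± 0.13 (SE, adjusted p = 0.1339). *PSMD8*, a lid subunit that joins late in assembly in yeast, had 2952 on the array labelled HIF2α-KD and 2841 on the control array in hypoxia, against 3996 and 3512 in normoxia. Here too both hypoxic arrays were below both normoxic ones in each of 2 probe sets, with -0.44 and -0.30 in the brightest and -0.32 and -0.33 in the other (limma adjusted p = 0.1225 for the gene).

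The remaining lid genes were less far from 0 in their brightest probe sets. *PSMD14*, the deubiquitinase of the lid, had -0.05 under the HIF2α-KD label and -0.07 on the control arrays. *PSMD7*, its inactive partner, had 0.02 and -0.13. The dimmer probe set of *PSMD14* had 0.03 and -0.09, and that of *PSMD7* had 0.22 and 0.08. *PSMD6* and *PSMD12*, scaffold subunits, had -0.13 and -0.10 under the HIF2α-KD label and -0.23 and -0.18 on the control arrays. *PSMD3* was near 0 in its brightest probe set, at -0.07 and 0.02, whereas its 3 other probe sets were all higher in hypoxia, by 0.24 to 0.28 under the HIF2α-KD label and 0.45 to 0.99 on the control arrays. By the brightest probe sets, *PSMD11*, which clamps the lid to the core, was the one of these lid genes above 0 in both, at 0.18 and 0.14. The dimmer probe set of *PSMD11* had -0.15 under the HIF2α-KD label and 0.18 on the control arrays.

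The 4 activator genes did not move as a class, with medians of -0.06 under the HIF2α-KD label and 0.04 on the control arrays. *PSME2* forms a ring with *PSME1* and is induced by interferon with it. *PSME2* had 2080 on the array labelled HIF2α-KD and 2308 on the control array in hypoxia, against 2841 and 2781 in normoxia. Both hypoxic arrays were below both normoxic ones, with differences of -0.45 and -0.27, and a second probe set gave -0.59 and -0.31 (limma adjusted p = 0.1566 for the gene). The last probe set of *PSME2*, dim and not above the background on the hypoxic control array, had -0.61 under the HIF2α-KD label. *PSME1* did not share this, at 0.02 and 0.03, although the pair are near neighbours in the dog genome with 1 annotated coding gene, *EMC9*, between them. *PSME3*, the nuclear activator, had 0.09 and 0.05.

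*PSME4*, a single-chain nuclear activator, had 650 on the array labelled HIF2α-KD and 739 on the control array in hypoxia, against 721 and 597 in normoxia. The order of the arrays thus differed between the labels, with -0.15 under the HIF2α-KD label and 0.30 on the control arrays, and the other 2 probe sets had -0.08 and 0.05 under the HIF2α-KD label and 0.50 and 0.16 on the control arrays.

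The 5 genes of assembly factors split by gene. *PSMD9*, a chaperone of the base, had 369 on the array labelled HIF2α-KD and 361 on the control array in hypoxia, against 268 and 321 in normoxia, with differences of 0.44 and 0.16. Its other 2 probe sets had 0.31 and 0.41 under the HIF2α-KD label and 0.00 and -0.05 on the control arrays, so they were higher in hypoxia under the HIF2α-KD label only. *PSMD10*, also a base chaperone and known as gankyrin, had 1240 on the array labelled HIF2α-KD and 1123 on the control array in hypoxia, against 1289 and 1559 in normoxia. It stood out by a high normoxic control array, and its differences were -0.05 and -0.47, with 0.09 and 0.15 under the HIF2α-KD label and -0.22 and -0.32 on the control arrays for its other probe sets. The core chaperones *PSMG1*, *PSMG2* and *PSMG3* had 0.28, -0.07 and 0.12 under the HIF2α-KD label and 0.10, -0.31 and -0.04 on the control arrays.

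A pair of genes that the rule took by symbol encode no subunits. *PSMC3IP*, a cofactor of meiotic and homologous recombination named for its binding to *PSMC3*, had 204 on the array labelled HIF2α-KD and 153 on the control array in hypoxia, against 281 and 336 in normoxia. It was the gene past 1.5-fold downward on the control arrays, with -0.43 under the HIF2α-KD label and -1.06 on the control arrays, and its second probe set had -0.42 and -0.65. The limma coefficient was -0.75 ± 0.18 (SE, adjusted p = 0.08516). *PSME3IP1*, which binds *PSME3*, had 365 on the array labelled HIF2α-KD and 394 on the control array in hypoxia, against 356 and 425 in normoxia, or 0.03 and -0.10. Without these 2 genes the medians of the other 38 were -0.07 and -0.12.

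**Figure D3:**
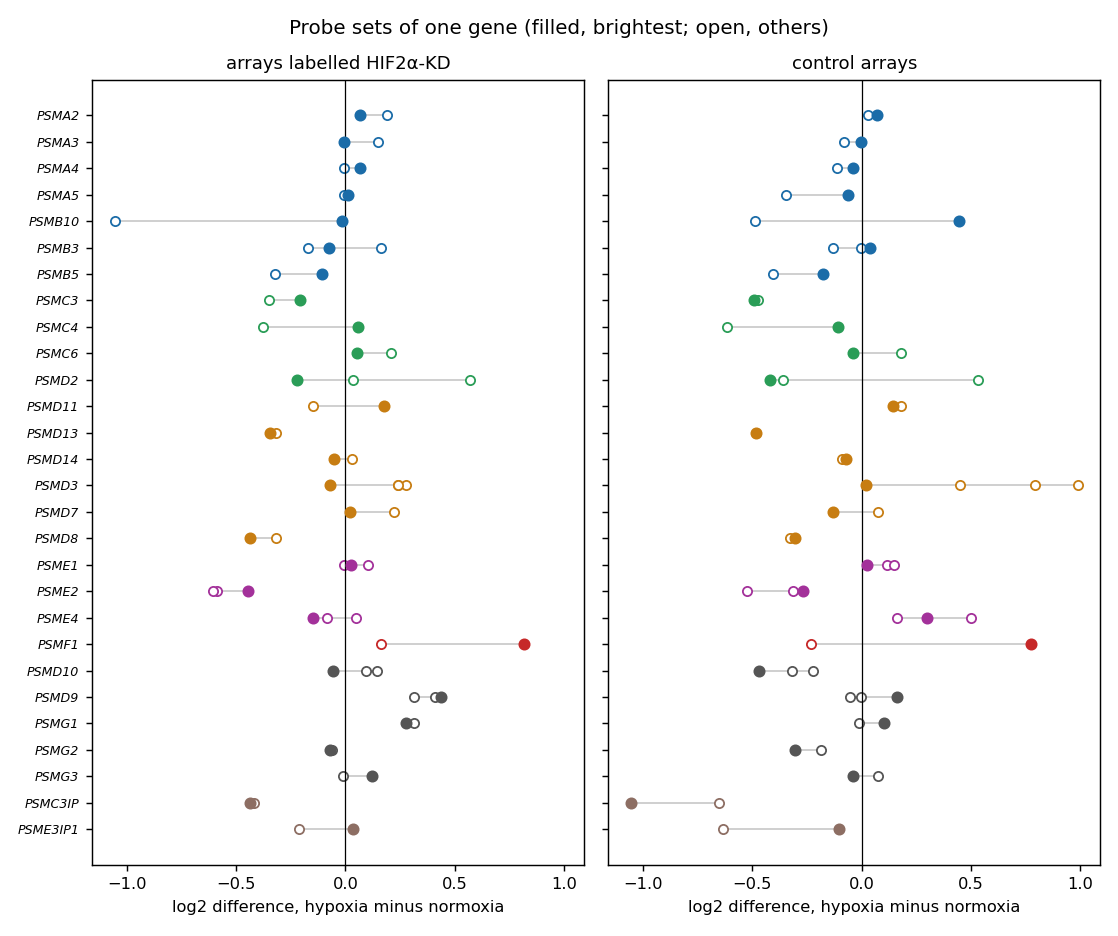
Log2 difference of hypoxia minus normoxia for every probe set that passed the filter in the 28 genes with more than 1 such probe set, on the arrays labelled HIF2α-KD (left) and the control arrays (right). Filled points are the probe set that stands for the gene and open points the others; *PSMD13*, *PSMD8* and *PSMC3* have points close together, whereas those of *PSMB10*, *PSMD2* and *PSMF1* lie on both sides of 0 on the control arrays.

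The spread between probe sets of 1 gene was as large as most of these differences. In the 28 genes with several probe sets that passed, the pooled SD within a gene was 0.21 for the hypoxia difference under the HIF2α-KD label and 0.27 on the control arrays. Of the 37 other probe sets, 19 had the sign of their gene under the HIF2α-KD label and 26 on the control arrays. Over all 77 probe sets, 43 (55.8%) were below 0 under the HIF2α-KD label and 52 (67.5%) on the control arrays. Of the 17194 probe sets of all genes that passed, 45.9% were below 0 on the control arrays. Under the HIF2α-KD label that share was slightly smaller.

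Between HIF2α-KD and control, the proteasome genes had small differences. None of the 40 genes reached 1.5-fold in either direction in hypoxia, where 4.93% of all genes were lower and 1.62% higher, or in normoxia, where 3.55% were lower and 2.45% higher. The median difference was 0.04 in hypoxia, with 14 of the 40 genes lower under the HIF2α-KD label against 55.7% of all genes. After quantile normalization the median was 0.13 and 7 of the 40 were lower, against 45.4% of all genes. In normoxia the median was -0.02, with 24 lower against 56.4% of all genes, but it was 0.01 after quantile normalization, with 16 lower against 51.3%. The direction also rests on a label that *EPAS1*, near the background in normoxia, did not bear out. At a log2 difference of 0.32, 1 gene was higher in hypoxia, *PSMC3IP* at 0.37, and 1 was higher in normoxia, *PSMB10* at 0.36 (7.7% and 9.08% of all genes), with 0 genes lower in either (16.5% and 13.8%).

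**Figure D4:**
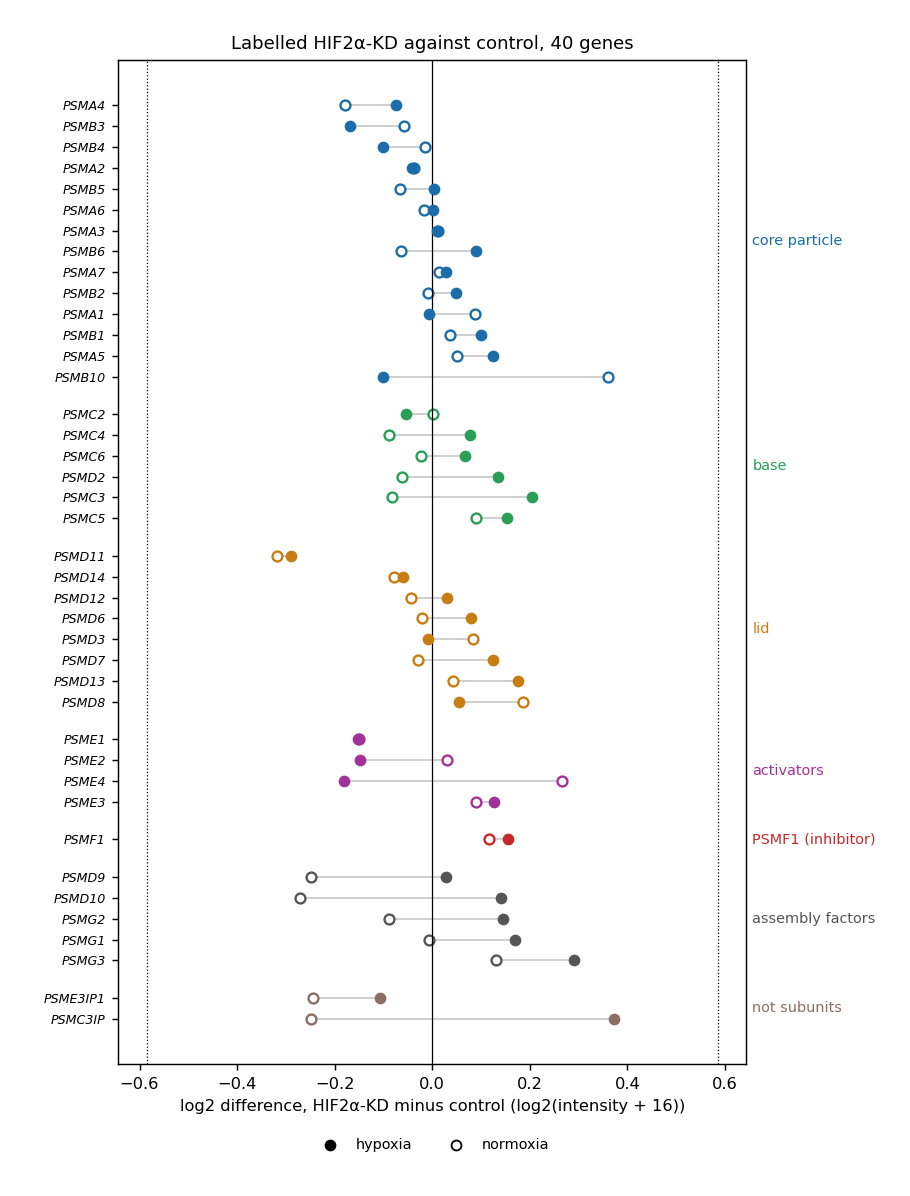
Log2 difference between cell lines, HIF2α-KD by label minus control, on the scale log2(intensity + 16), for the 40 genes by class. Filled points are hypoxia and open points normoxia, each point is 1 array against 1 array, and dotted lines mark 1.5-fold; no point reaches them, and *PSMD11* lies to the left at both oxygen levels, at -0.29 and -0.32.

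The knockdown differences at the 2 oxygen levels share no array and were not alike, with a Pearson correlation of 0.03 across the 40 genes and 0.17 across all genes. The limma knockdown term called 0 genes in the whole table, with a smallest adjusted p of 0.05942, and 206 genes were higher and 733 lower at an unadjusted p under 0.05 (2.11% and 7.52%). Of the 40 proteasome genes 0 were called, 0 were higher and 1 was lower at that unadjusted p. This one was *PSMD11*, named here after its values were seen: it had 1456 on the array labelled HIF2α-KD and 1783 on the control array in hypoxia, and 1288 and 1611 in normoxia. The brightest probe set was lower by about the same amount at both oxygen levels, at -0.29 and -0.32 (limma adjusted p = 0.5092). Its dimmer probe set was not lower, at 0.08 in hypoxia and 0.41 in normoxia.

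By class, the knockdown medians in hypoxia and normoxia were 0.00 and -0.01 for the core, 0.11 and -0.04 for the base, and 0.04 and -0.03 for the lid. The activators had -0.15 and 0.06, with *PSME1* at -0.15 in both, *PSME2* at -0.15 and 0.03, *PSME4* at -0.18 and 0.27, and *PSME3* at 0.13 and 0.09. The assembly factors had 0.15 and -0.09, and all 5 of them were higher under the HIF2α-KD label in hypoxia while 4 of 5 were lower in normoxia. Both arrays labelled HIF2α-KD lay below both control arrays for 6 of the 40 genes (17.7% of all genes), which were *PSMA4*, *PSMB3*, *PSMD11*, *PSMD14*, *PSME1* and *PSME3IP1*. They lay above for 4 genes (11.1% of all genes), which were *PSMA3*, *PSMA5*, *PSME3* and *PSMG3*. These shares are near those of all genes.

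The hypoxia difference under the HIF2α-KD label minus that on the control arrays was above 0 for 28 of the 40 genes, against 49.6% of all genes, with a median of 0.06 against -0.00. With 1 array per condition this difference was not tested. It was also above 0 for 59 of 73 mitochondrial ribosomal protein genes, with a median of 0.18. Of 52 cytosolic ribosomal protein genes 16 were above 0, with a median of -0.03. A shift above 0 was thus not particular to the proteasome genes. The assembly factors had a median of 0.23 and 5 of 5 genes above 0, beside medians of 0.02 for the core, 0.13 for the base and 0.05 for the lid. *PSMC3IP* had 0.62 and *PSMD10* 0.41, whereas *PSMB10* had -0.46 and *PSME4* -0.45.

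Genes of ribosomal proteins, which form other large complexes, were set beside the core, base and lid. The 28 genes of core, base and lid had a median hypoxia difference of -0.10 under the HIF2α-KD label and -0.17 on the control arrays. Of them 20 (71.4%) and 22 (78.6%) were below 0, against 46.8% of all genes in each. The 52 cytosolic ribosomal protein genes had -0.02 and 0.02, with 36 (69.2%) and 20 (38.5%) below 0. The 73 mitochondrial ribosomal protein genes had 0.03 and -0.15, with 32 (43.8%) and 56 (76.7%) below 0. Under the HIF2α-KD label the cytosolic share below 0 was thus near that of the proteasome. On the control arrays the mitochondrial group thus had a median near that of the proteasome, and under the HIF2α-KD label it did not.

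**Figure D5:**
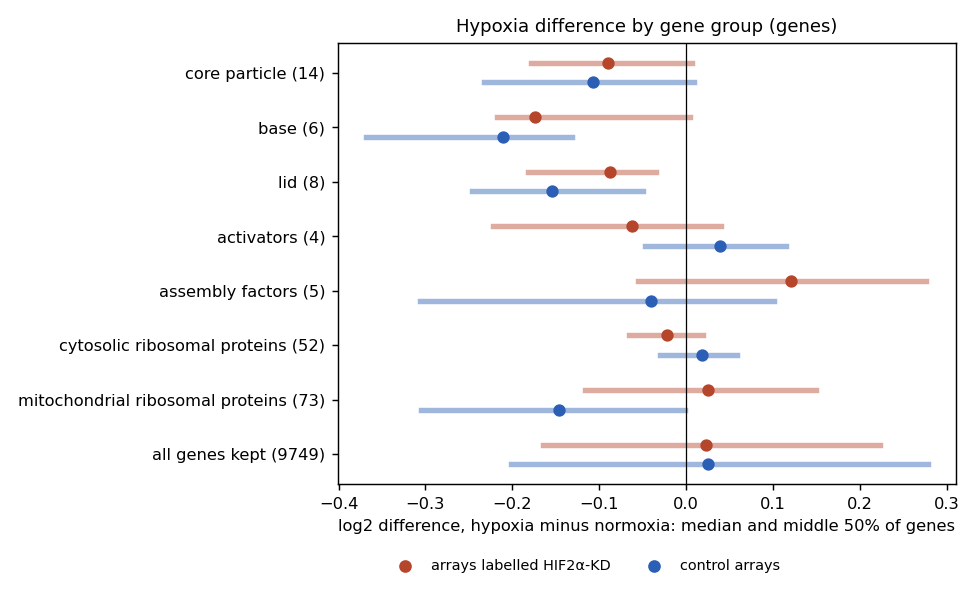
Median (point) and middle 50% of genes (bar) of the log2 difference hypoxia minus normoxia, on the scale log2(intensity + 16), for classes of proteasome genes, ribosomal protein genes and all 9749 genes, with the number of genes in brackets. Red is the arrays labelled HIF2α-KD and blue the control arrays; the base has medians of -0.17 and -0.21, against 0.02 and 0.03 for all genes.

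Genes listed as proteasome-associated were mixed in direction. The list held 13 symbols, some of them aliases. It included *SEM1* and *ADRM1*, which encode subunits of the regulatory particle but whose symbols the rule does not match. Of these genes 9 were measured, with a median hypoxia difference of 0.13 under the HIF2α-KD label and -0.07 on the control arrays. The 1 gene past 1.5-fold, downward on the control arrays (4.32% of all genes), was *ZFAND5*, an activator of the proteasome, with 2664 on the array labelled HIF2α-KD and 2136 on the control array in hypoxia, against 2434 and 3422 in normoxia. Its high array was the normoxic control, with a hypoxia difference of 0.13 under the HIF2α-KD label and -0.68 on the control arrays. Under both labels 3 of the 9 were lower in hypoxia (29.8% of all genes) and 4 were higher (36.1%). Among the lower ones, the proteasome-bound deubiquitinase *USP14* had -0.29 and -0.27, and the ubiquitin receptor *ADRM1* had -0.31 and -0.14. Among the higher ones, *PAAF1* had 0.51 and 0.39, and *SEM1* had 0.14 and 0.19.

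Of 8 listed genes that control subunit transcription 4 passed the filter, and 1 was higher by 1.5-fold, on the control arrays (10.2% of all genes). *NFE2L1*, the activator of subunit genes, had 759 on the array labelled HIF2α-KD and 989 on the control array in hypoxia, against 688 and 624 in normoxia. It was highest on the hypoxic control array, with a hypoxia difference of 0.14 under the HIF2α-KD label and 0.65 on the control arrays, and a knockdown difference of -0.38 in hypoxia and 0.14 in normoxia. The related *NFE2L2* had hypoxia differences of -0.13 and -0.23, and the repressor *BACH1* had 0.32 and 0.53.

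Of 16 listed symbols of ubiquitin supply and delivery, with *UFD1L* an alias of *UFD1*, 12 genes were measured. They had a median hypoxia difference of 0.00 under the HIF2α-KD label, with 6 below 0, and of 0.23 on the control arrays, with 1 below 0, against 46.8% of all genes in each. Of the 12, 1 was higher by 1.5-fold under the HIF2α-KD label (5.47% of all genes) and 3 on the control arrays (10.2%). *SQSTM1*, which carries ubiquitinated cargo to autophagy and the proteasome, had 122 on the array labelled HIF2α-KD and 214 on the control array in hypoxia, against 75.7 and 53.5 in normoxia. Both hypoxic arrays were above both normoxic ones, by 0.59 under the HIF2α-KD label and by 1.72 on the control arrays (limma adjusted p = 0.07015). *UBA6*, a ubiquitin-activating enzyme, had 1182 on the array labelled HIF2α-KD and 1823 on the control array in hypoxia, against 1285 and 1147 in normoxia, or -0.12 and 0.66. *NPLOC4*, a cofactor of the unfoldase *VCP*, had 60.3 and 72.4 in hypoxia, against 56.5 and 41.3 in normoxia, or 0.07 and 0.63. In the last 2 genes the hypoxic control array was the highest of the 4. The ubiquitin genes *UBB* and *RPS27A* had 0.01 and -0.01 under the HIF2α-KD label and 0.07 and 0.00 on the control arrays.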

How the data were processed

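The authors labelled total RNA with biotin by an Affymetrix 3' kit, and the intensities they deposited are linear, with 1 value for each probe set on each array. The sources used here do not state the summarization, background correction, scaling or software. A scaling that differed between arrays would move all genes of an array together, so each value is set beside that of all genes. From these intensities log2(intensity + 16) was computed. Probe sets with 1 symbol in the platform annotation were named (29254 of 42924), those with a highest intensity under 28.75 were left out, and the brightest stood for its gene. Background was the 95th percentile of 63 dim reporter probe sets, 20.6 to 27.2 per array; 1.81% to 1.92% of values equal 1. Pairs of arrays were counted at 1.5-fold with no test. The 4 arrays were fitted with limma 3.58.1 in R 4.3.3 (oxygen and line as additive terms, eBayes with trend, Benjamini-Hochberg adjustment over 9749 genes), after the script was tested on simulated data. All 42 symbols were found in the RefSeq gene table of the dog, which gave the neighbours of genes.

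Values per array are given for members past 1.5-fold or called by limma and for the 2 members of each class with the largest range, and in other lists for members past 1.5-fold or else the 2 with the largest range; others named were chosen after their values were seen. The members and lists were chosen with earlier results of these data known. Alternatives changed the pseudocount (1 or 64), the filter, the normalization, the summary of probe sets, the fold and the limma options. The number of arrays limits the precision. Sequences are not shown here.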

Additional observations from a re-analysis of the deposited data

Results flagged for a closer look

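Among the genes above the background on all 4 arrays, *SQSTM1* had knockdown differences of opposite sign at the 2 oxygen levels, each of at least 0.32 on the log2 scale. It was lower under the HIF2α-KD label in hypoxia, at -0.73, and higher under it in normoxia, at 0.40. Each value is 1 array against 1 array and the difference between them was not tested. No proteasome gene met this rule.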

How the results depend on the processing

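No paired analysis was possible because the labels give every array the replicate number 1 and each condition has 1 array; the limma fit with cell line as a term already compares the oxygen levels within each line. No array could be left out for the same reason. With no replicates, a median was taken as moved when it changed sign or shifted by over 1.5 times. In 10 alternatives the median hypoxia difference stayed below 0 for the 40 genes (-0.18 to -0.11 on the control arrays), for the core (-0.17 to -0.04 under the HIF2α-KD label, -0.20 to -0.10 on the control arrays), for the base (-0.19 to -0.14 and -0.25 to -0.21) and for the lid (-0.10 to -0.06 and -0.22 to -0.08). The value of -0.18 came from quantile normalization, where 32 of the 40 genes were lower on the control arrays. There the median of all genes was -0.044, with 55.1% of them lower. For the 40 genes under the HIF2α-KD label the median hypoxia difference moved to -0.046 with cyclic loess and -0.011 over all probe sets. The knockdown median in hypoxia moved to 0.13 with quantile normalization and 0.091 with cyclic loess, and that in normoxia changed sign, to 0.015 and 0.011; the difference between the hypoxia differences was 0.12 with quantile normalization. Small classes changed sign as well. Hypoxia medians of the activators on the control arrays ran from -0.12 to 0.084, and those of the assembly factors from -0.055 to 0.13 under the HIF2α-KD label and from -0.31 to 0.017 on the control arrays. In normoxia, knockdown medians of the core, base, lid and activators took both signs.

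Ribosomal protein medians lay near 0 and moved too. With quantile normalization they were 0.018 (cytosolic) and 0.15 (mitochondrial) for the knockdown in hypoxia, -0.0025 and -0.064 for the knockdown in normoxia, and -0.037 and -0.22 for hypoxia on the control arrays, with -0.0070 for the mitochondrial genes in hypoxia under the HIF2α-KD label. With cyclic loess they were 0.013 and 0.14 for the knockdown in hypoxia, and for the cytosolic genes 0.033 and 0.048 for hypoxia under the HIF2α-KD label and on the control arrays. With median centring the cytosolic medians were -0.015 and 0.0090 for the knockdown in hypoxia and normoxia, and -0.034 and -0.011 for hypoxia under the HIF2α-KD label and on the control arrays. Under the HIF2α-KD label the mitochondrial hypoxia median was 0.013 with median centring, 0.0080 with the mean of probe sets, 0.00070 over all probe sets and 0.014 with a filter at intensity 1000 (added after seeing the data), and the cytosolic one -0.033 with the mean of probe sets.

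Genes lower under the HIF2α-KD label in hypoxia numbered 7 with quantile normalization, against 45.4% of all genes. Over all 77 probe sets the numbers below 0 were 27 for the knockdown in hypoxia, 47 for the knockdown in normoxia, 43 for hypoxia under the HIF2α-KD label and 52 on the control arrays. The genes past 1.5-fold upward in hypoxia became 0 under both labels with a pseudocount of 64 and with the mean of probe sets. They also became 0 with either higher filter (75th percentile or 1000). At 2-fold they were 0 as well, against 1.38% of all genes under the HIF2α-KD label and 3.05% on the control arrays. On the control arrays they became 3 over all probe sets. At a log2 difference of 0.32 they were 2 under both labels, against 17.0% and 22.1% of all genes. Those downward on the control arrays became 4 over all probe sets, 0 with the filter at 1000 and 7 at 0.32 (15.5% of all genes). Under the HIF2α-KD label they became 3 over all probe sets and 5 at 0.32 (11.1% of all genes). For the knockdown, 1 gene was higher at 0.32 at each oxygen level, against 7.7% of all genes in hypoxia and 9.08% in normoxia. Shares of all genes past a fold or called by limma are not given here for the other settings. Whether the whole table moved with those counts is therefore not shown. The limma oxygen term called 0 proteasome genes with no filter, the filter at the 75th percentile, which *PSMF1* fails, cyclic loess, the mean of probe sets, no trend and the filter at 1000, and 2 with quantile normalization, where *PSMC3IP* had an adjusted p of 0.03336. The adjusted p of *PSMF1* was 0.1263 with no filter, 0.06269 with cyclic loess, 0.1789 with the mean of probe sets and 0.07152 without the trend. The causes were not tested. By its brightest probe set or the mean of its probe sets, no single gene past 1.5-fold changed sign. The dimmer probe set of *PSMF1* taken alone had the opposite sign on the control arrays, at -0.23.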
